A study of Mus musculus with 24 samples.

Results

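The Polycomb and DNA methylation genes described here were 9 genes chosen by symbol for their roles in these pathways: Ezh1, Ezh2, Suz12 and Eed of Polycomb repressive complex 2 (PRC2), the DNA methyltransferases Dnmt1 and Dnmt3a, the methyl-CpG binding protein Mbd1, and the 5-methylcytosine dioxygenases Tet1 and Tet3. They were found by symbol in 9 of the 28802 gene rows of a normalized RNA sequencing table, and all 9 were among the 16400 genes that passed a filter on low values, a mean of at least 0.5 cpm (reads scaled to library size) over all libraries. PRC2 places methyl groups on lysine residues of histone H3, a mark of silenced genes, with EZH1 or EZH2 as the catalytic subunit and SUZ12 and EED as core partners. DNMT3A sets new methyl groups on cytosines and DNMT1 copies them after replication, MBD1 binds methylated DNA, and TET enzymes oxidize the methyl group as a step toward its removal. EZH2 is known for its high level in dividing retinal progenitors, and EZH1 for its presence in cells that no longer divide.

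The study profiled total RNA of mouse retina at postnatal day 28 in 8 wild-type inbred strains, with 3 libraries per strain and 24 libraries in all. They were the wild-derived strains CAST/EiJ, PWK/PhJ and WSB/EiJ, and C57BL/6J, A/J, NZO/HlLtJ, NOD/ShiLtJ and 129S1/Svlmj. The same strains were measured for baseline refractive error, for the myopia that follows form deprivation, and for contrast sensitivity. The traits were read at later ages than the retinas were taken. These 3 traits served here only as strain covariates. Contrast sensitivity was available for 7 strains and 21 libraries, without A/J. Library depth, read from the steps between low values, ran from 57607000 to 78150000 reads, and the values of a library summed to between 332472.2 and 366569.7 cpm. The library with the fewest reads for any of the 9 genes held 490 reads of Ezh2, which sets the counting error of that value at 4.52%. Intervals of this kind cover counting error only.

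The tissue label was checked against marker lists. Lists were summed per library and are given with their most abundant gene. The 8 cone genes summed to between 267 and 429 cpm (Opn1sw at 109 cpm), the 8 bipolar cell genes to between 487 and 698 cpm (Trpm1 at 189 cpm), and the 9 amacrine cell genes to between 236 and 288 cpm (Pax6 at 100.3 cpm). The 9 ganglion cell genes summed to between 167 and 285 cpm (Nefl at 126 cpm), and the 9 genes of Mueller glia to between 953 and 1359 cpm (Glul at 609 cpm). These lists were expressed in all 24 libraries, as in retina. Other cell types were also read. Endothelial genes summed to between 92.0 and 139 cpm (8 genes, Kdr at 72.4 cpm), and pigment epithelium genes to between 73.5 and 138 cpm (10 genes, Otx2 at 63.9 cpm, a gene that photoreceptors and bipolar cells also express), with Best1 and Mlana under 0.5 cpm. Astrocyte genes summed to between 3.34 and 27.2 cpm (3 genes, Gfap at 5.88 cpm, with Pax2 under 0.5 cpm). In bulk tissue, fewer cells of a type and less RNA per cell cannot be told apart.

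Some libraries stood apart before any result was read. Xist, the RNA that coats the inactive X chromosome, was at 962 cpm in 129S1/Svlmj replicate 3, 906 cpm in C57BL/6J replicate 3, 1046 cpm in CAST/EiJ replicate 3 and 1081 cpm in PWK/PhJ replicate 2. In the other 20 libraries Xist was at or below 9.71 cpm. Ddx3y, Uty, Kdm5d and Eif2s3y of the Y chromosome summed to at least 114 cpm in those 20 libraries and summed to at most 0.188 cpm in the 4 Xist-high libraries, and the labels give no sex. The 11 lens genes were low in most libraries, with a median sum of 22.3 cpm, but reached 1823 cpm in 129S1/Svlmj replicate 2, 2049 cpm in NOD/ShiLtJ replicate 2 and 244 cpm in C57BL/6J replicate 2 (Cryaa was the most abundant of them, at a mean of 74.3 cpm). Nnt, chosen as a check of the C57BL/6J label, lay between 4.72 and 4.93 cpm in that strain and between 3.21 and 7.74 cpm over all libraries, so its gene-level value told nothing about the labels. Strain contrasts and trait relations whose call changed without the 4 Xist-high or the 3 lens-high libraries are given with both values, and pairs of strains by their counts.

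Per kilobase of exon, the level of the 9 genes was ordered with Suz12 at the top. Length was that of all exons annotated for a gene, merged, from 3828 bases in Eed to 16695 in Tet3. Single transcripts can be shorter, and the order under other lengths was not tested. Suz12 stood at a mean of 9.01 cpm per kb over the 24 libraries, Dnmt3a at 5.89, Tet3 at 4.37, Dnmt1 at 3.69, Ezh1 at 3.51, Mbd1 at 3.30, Eed at 2.78, Ezh2 at 1.99 and Tet1 at 1.91 cpm per kb. By these lengths, the transcript that encodes the Polycomb scaffold SUZ12 was more abundant than those of both catalytic subunits and of EED. All 9 genes passed the moderated F-test of limma over the 8 strains at a Storey q-value under 0.01. This says little, since 97.2% of the 16400 genes tested passed as well. The q-values rest on an estimate that a share of only 0.0208 of all genes was unchanged, and by the Benjamini-Hochberg adjusted p under 0.01 the test called 8 of the 9 genes and 70.6% of all genes, without Dnmt1 (adjusted p = 0.0691). Of 252 pairs of strains over the 9 genes, 116 differed at a Benjamini-Hochberg adjusted p under 0.05 (46.0%, against 35.5% of all gene and strain pairs tested), and 32 of 72 contrasts of a strain with the mean of the other 7 were called (44.4%, against 37.6%). Without the Xist-high libraries 105 pairs were called (15 lost and 4 gained), and without the lens-high libraries 116 (11 lost and 11 gained). In the order of strain means, 7 of 63 neighbouring strains differed (11.1%, against 8.27%).

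**Figure D1:**
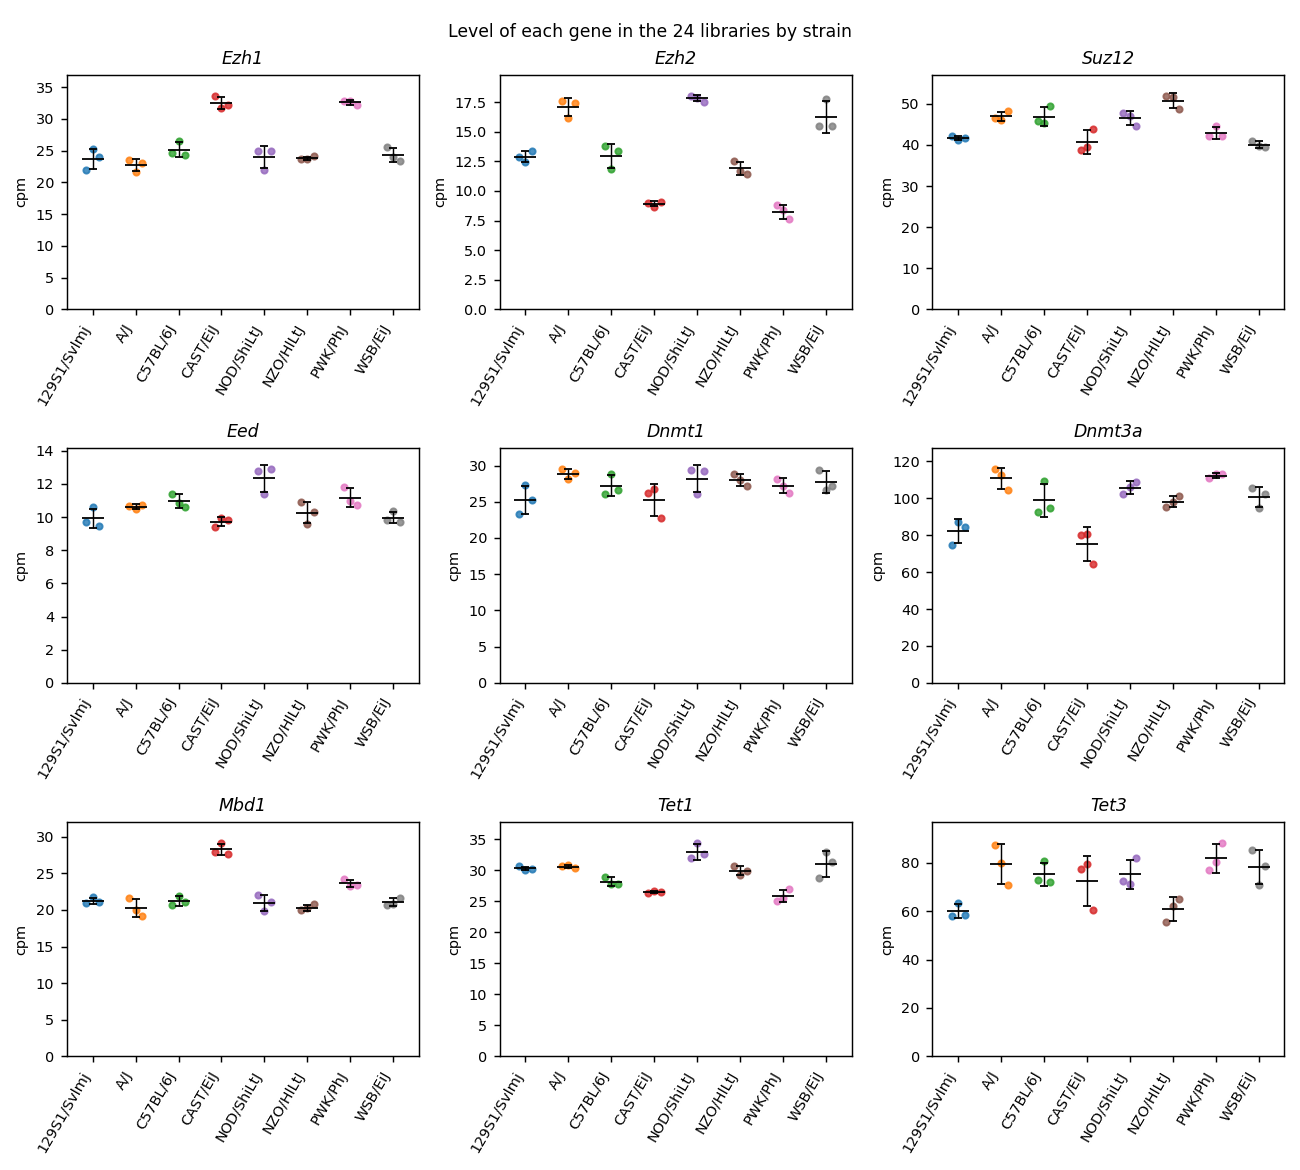
Level in cpm (vertical axis, from 0) of each of the 9 genes in the 24 libraries, by strain (horizontal axis). Points are single libraries, 3 per strain, and the bar with whiskers is the mean with its SD; Ezh1 and Mbd1 were highest and Ezh2 and Tet1 lowest in CAST/EiJ and PWK/PhJ, while Dnmt1 ranged only from 22.7 to 29.5 cpm.

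Ezh1, one of the catalytic subunits of PRC2, was high in a pair of strains. Its libraries read 33.6, 31.7 and 32.2 cpm in CAST/EiJ and 32.8, 32.8 and 32.2 cpm in PWK/PhJ. They read 22.0, 25.2 and 23.9 cpm in 129S1/Svlmj, 23.5, 21.7 and 23.0 cpm in A/J, and 24.7, 26.5 and 24.3 cpm in C57BL/6J. They read 25.0, 22.0 and 24.9 cpm in NOD/ShiLtJ, 23.6, 23.7 and 24.1 cpm in NZO/HlLtJ, and 25.6, 24.1 and 23.5 cpm in WSB/EiJ. All 6 libraries of CAST/EiJ and PWK/PhJ lay above the 18 others. PWK/PhJ, the highest strain, stood 1.44-fold above A/J, the lowest. The log2 difference from the mean of the other 7 strains was 0.37 ± 0.04 (SE, n = 3) in CAST/EiJ (limma adjusted p = 1.81e-07). In PWK/PhJ it was 0.37 ± 0.04 (limma adjusted p = 1.52e-07). Here and below, the SE of a log2 difference came from a limma fit whose spread per gene was shared by all 24 libraries. The n beside such an SE counts the libraries of the strain named. From low to high the order was A/J, 129S1/Svlmj, NZO/HlLtJ, NOD/ShiLtJ, WSB/EiJ, C57BL/6J, CAST/EiJ and PWK/PhJ, and of its 7 neighbour steps only that from C57BL/6J to CAST/EiJ was called (limma adjusted p = 1.38e-05). Ezh1 was also below the mean of the other strains in A/J by a log2 difference of -0.20 ± 0.04 (limma adjusted p = 0.000348). Smaller deficits were called in 129S1/Svlmj (log2 difference -0.14), NOD/ShiLtJ (-0.12) and NZO/HlLtJ (-0.13), and each call was lost in some runs without a library. The limma adjusted p in 129S1/Svlmj went from 0.00944 to 0.137 without replicate 1, in NOD/ShiLtJ from 0.022 to 0.284 without the lens-high replicate 2 and to 0.333 without all lens-high libraries, and in NZO/HlLtJ from 0.0149 to at most 0.056 without replicate 1 or without replicate 2. Without the lens-high libraries WSB/EiJ was called as well (0.0404, against 0.0714).

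Ezh2, the other catalytic subunit, showed the widest spread of the 9 genes. Its libraries read 9.004, 8.67 and 9.09 cpm in CAST/EiJ and 8.79, 8.36 and 7.61 cpm in PWK/PhJ. They read 12.5, 11.7 and 11.5 cpm in NZO/HlLtJ, 12.9, 12.5 and 13.4 cpm in 129S1/Svlmj, and 13.8, 11.8 and 13.4 cpm in C57BL/6J. They read 15.5, 17.8 and 15.5 cpm in WSB/EiJ, 17.6, 16.2 and 17.4 cpm in A/J, and 18.0, 17.9 and 17.6 cpm in NOD/ShiLtJ. The strains formed a low, a middle and a high group whose libraries did not overlap, a grouping made after the values were seen. NOD/ShiLtJ stood 2.16-fold above PWK/PhJ. Against the mean of the other strains, the log2 difference was -0.67 ± 0.05 (SE, n = 3) in PWK/PhJ (limma adjusted p = 9.06e-11) and -0.55 ± 0.05 in CAST/EiJ (limma adjusted p = 2.49e-09). It was 0.51 ± 0.05 in NOD/ShiLtJ, 0.44 ± 0.05 in A/J and 0.36 ± 0.05 in WSB/EiJ, all called, the last at a limma adjusted p of 1.83e-06. The order from low to high was PWK/PhJ, CAST/EiJ, NZO/HlLtJ, 129S1/Svlmj, C57BL/6J, WSB/EiJ, A/J and NOD/ShiLtJ. Its called steps were those from CAST/EiJ to NZO/HlLtJ (limma adjusted p = 4.07e-05) and from C57BL/6J to WSB/EiJ (limma adjusted p = 0.000511), and within each of the 3 groups no neighbours differed beyond their spread. Of the 28 strain pairs, 21 differed in Ezh2. NZO/HlLtJ was called against the other strains only without the lens-high libraries (limma adjusted p = 0.0325, against 0.0556).

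The 17 genes of cycling cells were read beside Ezh2. Of these, 9 were under 0.5 cpm, among them Mki67 and Top2a, and the most abundant was Pcna at 7.27 cpm. Their summed level was 15.1 cpm in CAST/EiJ and 17.6 cpm in PWK/PhJ, the lowest of the strains, and 19.6 cpm in NZO/HlLtJ, 19.7 in NOD/ShiLtJ, 20.3 in 129S1/Svlmj, 21.1 in WSB/EiJ, 28.2 in A/J and 31.0 in C57BL/6J. The sum and Ezh2 were thus both low in CAST/EiJ and PWK/PhJ, while NOD/ShiLtJ, highest in Ezh2, was in the lower part of the range of the sum. The part of these genes in the result was not tested.

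The balance of the catalytic subunits differed between strains. As a ratio of cpm per kb, Ezh2 to Ezh1 was 0.282 ± 0.018 (SD, n = 3) in PWK/PhJ and 0.306 ± 0.008 in CAST/EiJ. It was 0.557 ± 0.031 in NZO/HlLtJ, 0.577 ± 0.069 in C57BL/6J, 0.609 ± 0.052 in 129S1/Svlmj, 0.745 ± 0.076 in WSB/EiJ, 0.832 ± 0.065 in NOD/ShiLtJ and 0.838 ± 0.006 in A/J. By merged exon length (7440 bases for Ezh1 and 6678 for Ezh2), Ezh1 exceeded Ezh2 in the mean of every strain. The excess was largest in CAST/EiJ and PWK/PhJ. Whether Ezh1 exceeded Ezh2 in every strain with other lengths was not tested. Before division by length, the ratio was between 0.236 and 0.282 in the 6 libraries of those strains and at least 0.447 in the 18 others. Over the 8 strain means, Ezh1 and Ezh2 had a Pearson r of -0.88 and a Spearman coefficient of -0.57. How far this opposition rested on CAST/EiJ and PWK/PhJ was not tested. Within strains, over the 24 libraries after removal of strain means, r was -0.13.

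**Figure D2:**
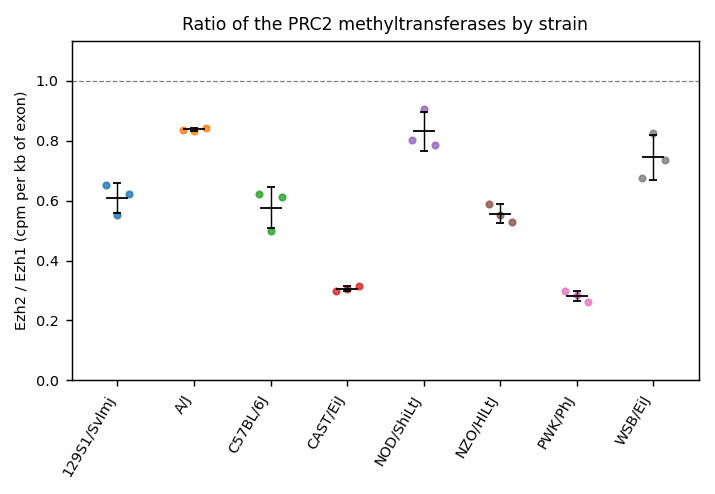
Ratio of Ezh2 to Ezh1 in cpm per kb of merged exons (vertical axis, from 0) in the 24 libraries by strain (horizontal axis). The dashed line marks equal levels at these lengths. Points are libraries, bars and whiskers the mean with its SD of 3 libraries; the means ran from 0.282 in PWK/PhJ to 0.838 in A/J.

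Suz12, the subunit that holds PRC2 together, varied less. Its libraries read 51.9, 51.6 and 48.6 cpm in NZO/HlLtJ, the highest strain, and 41.0, 39.6 and 39.6 cpm in WSB/EiJ, the lowest. They read 38.7, 39.4 and 43.9 cpm in CAST/EiJ, 42.2, 41.3 and 41.7 cpm in 129S1/Svlmj, and 42.2, 44.6 and 42.1 cpm in PWK/PhJ. They read 47.8, 47.1 and 44.6 cpm in NOD/ShiLtJ, 45.8, 45.4 and 49.5 cpm in C57BL/6J, and 46.6, 46.0 and 48.2 cpm in A/J. Libraries of NZO/HlLtJ overlapped those of C57BL/6J alone, and WSB/EiJ, CAST/EiJ, 129S1/Svlmj and PWK/PhJ formed a lower run that did not reach above 44.6 cpm. NZO/HlLtJ stood 1.27-fold above WSB/EiJ. Against the other strains the log2 difference was 0.21 ± 0.04 (SE, n = 3) in NZO/HlLtJ (limma adjusted p = 4.91e-05), -0.17 ± 0.04 in WSB/EiJ (0.000794) and -0.14 ± 0.04 in CAST/EiJ (0.00292). A call in 129S1/Svlmj (log2 difference -0.10, limma adjusted p = 0.0317) was lost without any of its replicates 1, 2 or 3, with an adjusted p of up to 0.105. It was also lost after quantile normalization (0.0819), without the Xist-high libraries (0.0944) and without the lens-high libraries (0.11). Without the Xist-high libraries A/J (0.0127, against 0.0565) and NOD/ShiLtJ (0.03, against 0.114) were called. In the order WSB/EiJ, CAST/EiJ, 129S1/Svlmj, PWK/PhJ, NOD/ShiLtJ, C57BL/6J, A/J and NZO/HlLtJ, no neighbours differed beyond their spread, although 16 of 28 pairs did.

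Eed, whose product reads the methyl mark and stimulates PRC2, ranged from 9.43 to 12.9 cpm. NOD/ShiLtJ was highest at 12.4 ± 0.8 cpm (SD, n = 3) and CAST/EiJ lowest at 9.73 ± 0.26 cpm, a 1.27-fold range, and the libraries of these strains did not overlap. The log2 difference from the other strains was 0.23 ± 0.04 (SE) in NOD/ShiLtJ (limma adjusted p = 0.000168) and -0.13 ± 0.04 in CAST/EiJ (limma adjusted p = 0.0222). The call in CAST/EiJ was lost without CAST/EiJ replicate 1 (adjusted p = 0.117), and also under both other scalings (0.0584 and 0.0803) and without the Xist-high libraries (0.054). In 129S1/Svlmj a call was gained without the lens-high libraries (0.017, against 0.0719). From low to high the order was CAST/EiJ, 129S1/Svlmj, WSB/EiJ, NZO/HlLtJ, A/J, C57BL/6J, PWK/PhJ and NOD/ShiLtJ, and none of its 7 neighbour steps was called by limma. The ratio of Suz12 to Eed per kb lay between 2.92 ± 0.26 (SD, n = 3) in NOD/ShiLtJ and 3.83 ± 0.28 in NZO/HlLtJ.

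The promoters of the PRC2 genes are described from the reference genome alone, and a relation of their sequence to the strain levels was not tested. Windows from 250 bases before to 50 bases after the annotated start were taken from RefSeq (GRCm38.p6). These starts are not all the gene starts given below. That of Ezh2 lay 311 bases inside the gene, that of Eed 7, that of Tet3 17406, that of Tet1 21672, those of Dnmt3a 973, 1153 and 85737, and those of Dnmt1 0, 6909 and 7265. The table held 8 of the 9 genes by symbol in the windows used, 12 promoters in all; Mbd1 was not used. The motifs searched on both strands were TTTCCCGC, TTTCGCGC, TTTGCCGC and TTTGGCGC (forms bound by E2F factors), CCAAT, and GGGCGG (the GC box), and they were chosen after matches had been looked at. Of 32851 promoters, 1.07% held TTTCCCGC, 0.323% TTTCGCGC, 0.441% TTTGCCGC, 0.514% TTTGGCGC and 2.26% any of these forms, while 37.4% held CCAAT and 35.7% GGGCGG. Capitals mark the matches, of either strand, in the sequences of Ezh1 (chr11:101226414-101226713, minus strand), Ezh2 (chr6:47594981-47595280, minus strand) and Suz12 (chr11:79992856-79993155, plus strand), each read along its gene.
Ezh1: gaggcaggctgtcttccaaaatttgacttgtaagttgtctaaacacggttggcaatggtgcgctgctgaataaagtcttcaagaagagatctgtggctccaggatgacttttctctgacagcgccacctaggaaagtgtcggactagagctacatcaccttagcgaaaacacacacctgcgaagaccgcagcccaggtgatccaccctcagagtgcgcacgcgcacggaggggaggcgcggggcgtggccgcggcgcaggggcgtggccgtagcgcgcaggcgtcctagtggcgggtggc
Ezh2: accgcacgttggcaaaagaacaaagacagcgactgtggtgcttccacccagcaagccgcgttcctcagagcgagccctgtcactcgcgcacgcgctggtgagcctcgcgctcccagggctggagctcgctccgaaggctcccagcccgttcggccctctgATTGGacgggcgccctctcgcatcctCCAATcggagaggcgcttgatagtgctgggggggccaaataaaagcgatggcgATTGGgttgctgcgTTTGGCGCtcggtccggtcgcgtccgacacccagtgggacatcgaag
Suz12: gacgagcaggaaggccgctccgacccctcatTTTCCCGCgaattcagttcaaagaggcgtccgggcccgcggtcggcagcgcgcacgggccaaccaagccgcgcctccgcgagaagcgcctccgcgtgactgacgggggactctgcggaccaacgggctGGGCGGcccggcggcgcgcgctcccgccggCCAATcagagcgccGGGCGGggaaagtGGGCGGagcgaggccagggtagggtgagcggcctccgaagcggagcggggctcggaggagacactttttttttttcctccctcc

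The Ezh2 window held TTTGGCGC at bases 3 to 10 after the start, and CCAAT on the same strand and at 2 places on the opposite strand. The Suz12 window held TTTCCCGC from 219 bases before the start, 1 CCAAT and 3 GC boxes. The Ezh1 window held none of the motifs, which says only that these letters are not in this stretch. CpG dinucleotides numbered 23 in Ezh1, 31 in Ezh2 and 41 in Suz12, against a median of 7 over all promoters. The Eed window (17 CpG) held 1 CCAAT, that of Tet1 (17 CpG) 1 GC box, and that of Tet3 (22 CpG) 1 CCAAT and 2 GC boxes. Dnmt1 had 3 windows with 2, 12 and 33 CpG, with 5, 0 and 3 CCAAT and 0, 0 and 2 GC boxes, of which the one with 33 held 2 E2F-type matches, and Dnmt3a had 3 windows with 46, 47 and 18 CpG and 6, 7 and 2 GC boxes.

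Dnmt3a, a methyltransferase that acts on unmethylated sites, was the most abundant of the 9 genes before division by length. Its libraries read 80.3, 80.9 and 64.3 cpm in CAST/EiJ and 74.8, 87.0 and 84.7 cpm in 129S1/Svlmj. They read 95.2, 98.2 and 101 cpm in NZO/HlLtJ, 92.8, 109 and 94.8 cpm in C57BL/6J, and 105, 94.7 and 102 cpm in WSB/EiJ. They read 102, 106 and 109 cpm in NOD/ShiLtJ, 116, 112 and 105 cpm in A/J, and 111, 113 and 113 cpm in PWK/PhJ. Libraries of CAST/EiJ and 129S1/Svlmj lay below all others, and CAST/EiJ and PWK/PhJ, alike in Ezh1 and Ezh2, were the opposite ends for Dnmt3a, 1.49-fold apart. The log2 difference from the other strains was -0.42 ± 0.06 (SE, n = 3) in CAST/EiJ (limma adjusted p = 2.38e-06), -0.28 ± 0.06 in 129S1/Svlmj (0.000486), 0.24 ± 0.06 in PWK/PhJ (0.00187) and 0.22 ± 0.06 in A/J (0.00425). From low to high the order was CAST/EiJ, 129S1/Svlmj, NZO/HlLtJ, C57BL/6J, WSB/EiJ, NOD/ShiLtJ, A/J and PWK/PhJ. The step from 129S1/Svlmj to NZO/HlLtJ was called (limma adjusted p = 0.00988) and lost without 129S1/Svlmj replicate 1 (0.0681), and no other neighbours differed beyond their spread.

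Dnmt1, the maintenance methyltransferase, varied least. It ranged from 22.7 cpm in CAST/EiJ replicate 3 to 29.5 cpm in A/J replicate 1, with strain means from 25.3 ± 2.2 (SD, n = 3) in CAST/EiJ to 28.9 ± 0.7 in A/J, a 1.14-fold range. Its F-test had a q of 0.00144 but a Benjamini-Hochberg adjusted p of 0.0691, so whether it was called depended on the adjustment. Without the Xist-high libraries these were 0.0106 and 0.323, and without the lens-high libraries 6.98e-05 and 0.00743. Limma called none of its 8 strain contrasts, the lowest adjusted p being 0.0562 in CAST/EiJ. Without the lens-high libraries CAST/EiJ (0.0414) and 129S1/Svlmj (0.0102, against 0.0608) were called, and 129S1/Svlmj also under median-ratio scaling (0.0252). No neighbours differed in the order CAST/EiJ, 129S1/Svlmj, C57BL/6J, PWK/PhJ, WSB/EiJ, NZO/HlLtJ, NOD/ShiLtJ and A/J. The pairs called were A/J with 129S1/Svlmj (limma adjusted p = 0.0249) and A/J with CAST/EiJ (0.0235). The former was lost without replicate 1 or 3 of either strain, with an adjusted p of up to 0.135, and the latter without A/J replicate 1 or 3 or CAST/EiJ replicate 3, with an adjusted p of up to 0.166, and without the Xist-high libraries (0.221). Per kb, the ratio of Dnmt3a to Dnmt1 ran from 1.32 ± 0.05 (SD, n = 3) in CAST/EiJ to 1.83 ± 0.09 in PWK/PhJ.

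Mbd1, a protein that binds methylated CpG sites and represses transcription, was high in the same pair of strains as Ezh1, but unequally. Its libraries read 28.0, 29.2 and 27.7 cpm in CAST/EiJ and 24.2, 23.3 and 23.4 cpm in PWK/PhJ. They read 20.9, 21.7 and 21.04 cpm in 129S1/Svlmj, 21.7, 20.0 and 19.2 cpm in A/J, and 20.7, 22.0 and 21.1 cpm in C57BL/6J. They read 22.0, 19.8 and 21.1 cpm in NOD/ShiLtJ, 20.0, 20.2 and 20.8 cpm in NZO/HlLtJ, and 20.6, 20.8 and 21.7 cpm in WSB/EiJ. CAST/EiJ lay above PWK/PhJ and PWK/PhJ above the 18 other libraries. The log2 difference from the other strains was 0.40 ± 0.04 (SE, n = 3) in CAST/EiJ (limma adjusted p = 4.47e-09). In PWK/PhJ it was 0.11 ± 0.04 (limma adjusted p = 0.0132), a call lost without PWK/PhJ replicate 1 (0.0759), under both other scalings (0.0511 and 0.0574) and without the Xist-high libraries (0.0582). Mbd1 was below the mean of the other strains in NZO/HlLtJ (-0.12, adjusted p = 0.00774 by limma) and in A/J (-0.13, adjusted p = 0.00601), the latter lost without A/J replicate 3 (0.0861). In NOD/ShiLtJ it was called lower only under the other scalings (0.0154 and 0.00765, against 0.0888). In the order A/J, NZO/HlLtJ, NOD/ShiLtJ, WSB/EiJ, 129S1/Svlmj, C57BL/6J, PWK/PhJ and CAST/EiJ, the step from PWK/PhJ to CAST/EiJ was called (limma adjusted p = 0.000198). The step from C57BL/6J to PWK/PhJ (limma adjusted p = 0.0154) was lost without C57BL/6J replicate 1 or PWK/PhJ replicate 1, with an adjusted p of up to 0.0587, and without the Xist-high libraries (0.0755).

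Tet1, which oxidizes methylated cytosine, followed Ezh2. Its libraries read 26.4, 26.7 and 26.5 cpm in CAST/EiJ and 25.1, 25.5 and 27.04 cpm in PWK/PhJ. They read 29.0, 27.8 and 27.8 cpm in C57BL/6J, 30.7, 29.3 and 29.9 cpm in NZO/HlLtJ, and 30.6, 30.1 and 30.2 cpm in 129S1/Svlmj. They read 30.6, 30.8 and 30.3 cpm in A/J, 28.8, 33.0 and 31.3 cpm in WSB/EiJ, and 31.9, 34.4 and 32.6 cpm in NOD/ShiLtJ. With the cpm values as given, all 6 libraries of CAST/EiJ and PWK/PhJ lay below the 18 others. The margin was smaller than the range within PWK/PhJ, and whether it held under the other scalings was not tested. NOD/ShiLtJ stood 1.28-fold above PWK/PhJ. The log2 difference from the other strains was -0.20 ± 0.03 (SE, n = 3) in PWK/PhJ (limma adjusted p = 4.7e-05), -0.16 ± 0.03 in CAST/EiJ (0.000613) and 0.19 ± 0.03 in NOD/ShiLtJ (0.000117). In WSB/EiJ it was 0.09 with a limma adjusted p of 0.0453, a call kept in 6 of 24 runs without a library. That call was lost, with an adjusted p of up to 0.384, without replicate 2 or 3 of 129S1/Svlmj, C57BL/6J, NZO/HlLtJ or WSB/EiJ, without replicate 1 or 3 of NOD/ShiLtJ, without replicate 1 or 2 of PWK/PhJ, and without any replicate of A/J or CAST/EiJ. It was also lost without the Xist-high (0.099) and without the lens-high libraries (0.0501). No neighbours differed in the order PWK/PhJ, CAST/EiJ, C57BL/6J, NZO/HlLtJ, 129S1/Svlmj, A/J, WSB/EiJ and NOD/ShiLtJ, although 16 of 28 pairs did. Tet1 and Ezh2 had a Pearson r of 0.93 and a Spearman coefficient of 0.90 over the 8 strain means, and an r of 0.22 within strains over 24 libraries.

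Tet3, the other dioxygenase, had wide spreads within strains. It ranged from 55.4 to 88.2 cpm, with strain means of 60.1 ± 3.0 (SD, n = 3) in 129S1/Svlmj, 60.8 ± 5.0 in NZO/HlLtJ, 72.5 ± 10.4 in CAST/EiJ, between 75.3 and 79.4 cpm in the next 4 strains, and 81.8 ± 5.8 in PWK/PhJ. The libraries of 129S1/Svlmj and NZO/HlLtJ lay below all others except CAST/EiJ replicate 3, at 60.6 cpm, a Xist-high library. The log2 difference from the other strains was -0.30 ± 0.07 (SE) in 129S1/Svlmj (limma adjusted p = 0.00179) and -0.28 ± 0.07 in NZO/HlLtJ (0.003). In PWK/PhJ it was 0.20 ± 0.07 (limma adjusted p = 0.0325), a call lost without PWK/PhJ replicate 2 or 3 (up to 0.203), under both other scalings (0.0568 and 0.0922) and without the Xist-high libraries (0.0791). WSB/EiJ was called only after quantile normalization (0.0484, against 0.18). In the order 129S1/Svlmj, NZO/HlLtJ, CAST/EiJ, NOD/ShiLtJ, C57BL/6J, WSB/EiJ, A/J and PWK/PhJ, the step from NZO/HlLtJ to CAST/EiJ was at a limma adjusted p of 0.0498. That step was kept in 8 of 24 runs without a library, and lost, with an adjusted p of up to 0.216, without any replicate of 129S1/Svlmj or PWK/PhJ, without replicate 1 or 2 of CAST/EiJ, NOD/ShiLtJ or NZO/HlLtJ, without replicate 1 or 3 of C57BL/6J, without A/J replicate 2 and without WSB/EiJ replicate 3. It was also lost after quantile normalization (0.0529), without a filter on low values (0.0724) and with a mean of at least 5 cpm required (0.0516). No other neighbours differed beyond their spread. Per kb, Tet3 to Tet1 ran from 1.83 ± 0.10 (SD, n = 3) in 129S1/Svlmj to 2.93 ± 0.09 in PWK/PhJ.

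By strain, CAST/EiJ and PWK/PhJ stood apart for the most genes with all libraries and the cpm values as given, 7 and 6 of 9. In CAST/EiJ, Ezh1 and Mbd1 were higher than the mean of the other strains (2 of 9, against 20.4% of all genes tested) and Ezh2, Suz12, Eed, Dnmt3a and Tet1 lower (5 of 9, against 29.3%). In PWK/PhJ, Ezh1, Dnmt3a, Mbd1 and Tet3 were higher (4 of 9, against 26.7%) and Ezh2 and Tet1 lower (2 of 9, against 22.9%). Of these, Eed in CAST/EiJ and Mbd1 and Tet3 in PWK/PhJ were lost under both other scalings and without the Xist-high libraries. Eed aside, the 4 genes lower in CAST/EiJ stood against 26.3%, 24.8% and 23.7% of all genes in these settings. The 2 genes that then remained higher in PWK/PhJ, Ezh1 and Dnmt3a, stood against 24.1%, 24.7% and 21.2% of all genes. PWK/PhJ then no longer ranked above NOD/ShiLtJ, which gained Mbd1 under both other scalings and Suz12 without the Xist-high libraries. C57BL/6J stood apart for none of the 9 genes by limma, against 30.0% of all genes tested. With CAST/EiJ and PWK/PhJ as 1 group, a grouping chosen after the values were seen, all 6 of their libraries were above all 18 others for Ezh1 and Mbd1 (2 of 9, against 2.82% of all genes tested) and below all others for Ezh2 and Tet1 (2 of 9, against 3.71%). The remaining 5 genes overlapped. These positions rest on the cpm values as given and were not tested under the other scalings. Some marker lists moved with these strains as well. The 10 pigment epithelium genes were lowest in this pair, at 76.4 cpm in CAST/EiJ and 78.6 cpm in PWK/PhJ against at least 88.7 cpm in the other strains (with Best1 and Mlana under 0.5 cpm). Otx2, most of the sum, was not lowest there, at 63.6 and 63.2 cpm against 53.0 cpm in 129S1/Svlmj and 59.0 cpm in C57BL/6J. The 9 genes of Mueller glia were lowest in CAST/EiJ (995 cpm, led by Glul), next to 1009 cpm in WSB/EiJ. Summed levels were lowest in CAST/EiJ for the 9 ganglion cell genes (168 cpm, led by Nefl), and highest there for the 8 endothelial genes (136 cpm, led by Kdr). Kdr itself was highest in CAST/EiJ and PWK/PhJ (97.6 and 82.6 cpm, against at most 79.1 cpm), while the endothelial sum in PWK/PhJ (114 cpm) was below that in A/J (117 cpm). Trpm1 of the bipolar cell list was lowest in PWK/PhJ and CAST/EiJ (129.5 and 143 cpm, against at least 175 cpm). The sum of that list was lowest in C57BL/6J (496 cpm). The 3 astrocyte genes were highest in PWK/PhJ (25.9 cpm, with Pax2 under 0.5 cpm), of which S100b, named after its values were seen, gave 18.4 cpm, while Gfap was highest in A/J (12.3 cpm, against 7.45 cpm in PWK/PhJ). The 8 cone genes were highest in PWK/PhJ (426 cpm) and lowest in CAST/EiJ (276 cpm), and Opn1sw, the most abundant of them, was highest in WSB/EiJ (146 cpm). Their part in the results was not tested.

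Between the members, over the 8 strain means, Ezh1 had an r of 0.89 with Mbd1 (Spearman 0.83) and -0.88 with Tet1 (Spearman -0.64), and Dnmt3a had an r of 0.89 with Dnmt1 (Spearman 0.67) and 0.57 with Tet3 (Spearman 0.86). Within strains, over 24 libraries after removal of strain means, Dnmt3a had an r of 0.84 with Tet3 and 0.72 with Dnmt1, Ezh1 had an r of 0.75 with Dnmt1 (-0.49 over strain means), 0.45 with Mbd1 and -0.55 with Tet1, and Suz12 had an r of -0.66 with Tet3 and -0.65 with Dnmt3a. CAST/EiJ replicate 3 was the lowest of its strain in Dnmt1, Dnmt3a and Tet3 and the highest in Suz12. Points of 1 library share its depth and composition, so these values are descriptions. How far the values over strain means, here and above, rested on CAST/EiJ and PWK/PhJ was not tested.

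Against the traits, each library entered as a replicate carrying the value of its strain, the design of the study, so that 3 libraries share 1 trait value. With the strain as a random effect in limma, 0 of the 9 were called for any trait. The shares of all genes were then 1.27% for refractive error, 0.713% for form-deprivation myopia and 0.146% for contrast sensitivity. For baseline refractive error, limma called 4 of the 9 genes at a Storey q under 0.01, against 15.5% of all genes tested. Ezh1 and Mbd1 were higher and Ezh2 and Tet1 lower in strains with higher refractive error, which ranked, from low to high, 129S1/Svlmj, NOD/ShiLtJ, A/J, C57BL/6J, NZO/HlLtJ, WSB/EiJ, PWK/PhJ and CAST/EiJ. The genes called were those that set CAST/EiJ and PWK/PhJ apart, the strains at the top of this order. From the lowest to the highest strain, the fitted log2 change was 0.44 ± 0.10 (SE, 24 libraries) for Ezh1 (q = 0.00093), -0.69 ± 0.19 for Ezh2 (q = 0.00562), 0.28 ± 0.08 for Mbd1 (q = 0.00741) and -0.22 ± 0.06 for Tet1 (q = 0.00771). Without CAST/EiJ and PWK/PhJ, an alternative chosen after seeing the data, 0 of the 9 were called (limma, 1 at an unadjusted p under 0.05), against 1.87% of all genes, and the moderated t of Mbd1 turned from 3.41 to -0.64. Ezh1 was called without each library in turn, with t between 4.18 and 5.19, and lost without the strain CAST/EiJ (t = 3.12, q = 0.0226). Ezh2 was lost without any replicate of CAST/EiJ or PWK/PhJ (q up to 0.0149). Mbd1 was lost without any of these or without A/J replicate 2 or 3 or NOD/ShiLtJ replicate 2 (q up to 0.0225), and Tet1 without any replicate of A/J, CAST/EiJ, NOD/ShiLtJ or PWK/PhJ (q up to 0.0175). The count of genes called was therefore 1 without any replicate of CAST/EiJ or PWK/PhJ, and 2 without A/J replicate 2 or 3 or NOD/ShiLtJ replicate 2. Without the 4 Xist-high libraries Ezh1 alone was called (q = 0.00956, with 0.0273 for Ezh2, 0.0406 for Mbd1 and 0.0343 for Tet1), and without the 3 lens-high libraries Ezh1 and Ezh2 (q = 0.00135 and 0.00533), with Mbd1 at 0.0101 and Tet1 at 0.0109. Tet1 was not called under either other scaling, with q of 0.0222 and 0.015. Without a filter on low values Mbd1 (q = 0.0103) and Tet1 (0.0102) were lost, and by the Benjamini-Hochberg adjusted p Ezh1 alone was under 0.01. Without whole strains, Ezh2, Mbd1 and Tet1 were each lost without A/J, CAST/EiJ, NOD/ShiLtJ or PWK/PhJ (q up to 0.173), and Mbd1 also without C57BL/6J (0.0131).

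For form-deprivation myopia, limma called Suz12, Mbd1 and Ezh1, 3 of the 9, against 10.9% of all genes tested. Strains ranked from least to most myopia as NZO/HlLtJ, NOD/ShiLtJ, A/J, C57BL/6J, 129S1/Svlmj, PWK/PhJ, WSB/EiJ and CAST/EiJ. Suz12 was high in the strains with little myopia and low in those with much, so that NZO/HlLtJ, highest in Suz12, was lowest in this trait. The fitted log2 change from the lowest to the highest strain was -0.37 ± 0.06 (SE, 24 libraries) for Suz12 (q = 0.000114), 0.41 ± 0.08 for Mbd1 (q = 0.000936) and 0.44 ± 0.12 for Ezh1 (q = 0.00707). Suz12 was called without each library and without each strain in turn, with t between -7.55 and -5.63 over libraries and between -6.52 and -4.36 over strains. It was also called without CAST/EiJ and PWK/PhJ (t = -5.91, q = 0.00103), but not without all 3 wild-derived strains (t = -4.18, q = 0.0174). Nor was it called with the strain as a random effect in limma. Mbd1 was called without each library, and lost without the strain CAST/EiJ (t = 2.03). Ezh1 was lost without any replicate of CAST/EiJ or without NOD/ShiLtJ replicate 2 (q up to 0.0291), without the strain A/J (0.0122), C57BL/6J (0.0119), NOD/ShiLtJ (0.0154) or CAST/EiJ (0.207), without a filter on low values (0.0102), by the Benjamini-Hochberg adjusted p (0.0136), without the Xist-high libraries (q = 0.0283) and without the lens-high libraries (q = 0.0128).

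For contrast sensitivity, measured at 0.064 cycles per degree, limma called Mbd1, 1 of the 9, against 5.12% of all genes tested, over 21 libraries of 7 strains. The trait ranked NZO/HlLtJ, WSB/EiJ, NOD/ShiLtJ, PWK/PhJ, C57BL/6J, 129S1/Svlmj and CAST/EiJ from low to high. The fitted log2 change for Mbd1 was 0.34 ± 0.07 (SE, q = 0.00311), and the call was lost without any replicate of CAST/EiJ (q up to 0.0185, with 0 genes called), without the strain CAST/EiJ (0.285), on the rank of the trait (0.0167) and without the Xist-high libraries (q = 0.0183). The next lowest q-values, none of them under the limit, were those of Dnmt3a (0.0197), Ezh1 (0.0281), Ezh2 (0.0451) and Dnmt1 (0.05).

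**Figure D3:**
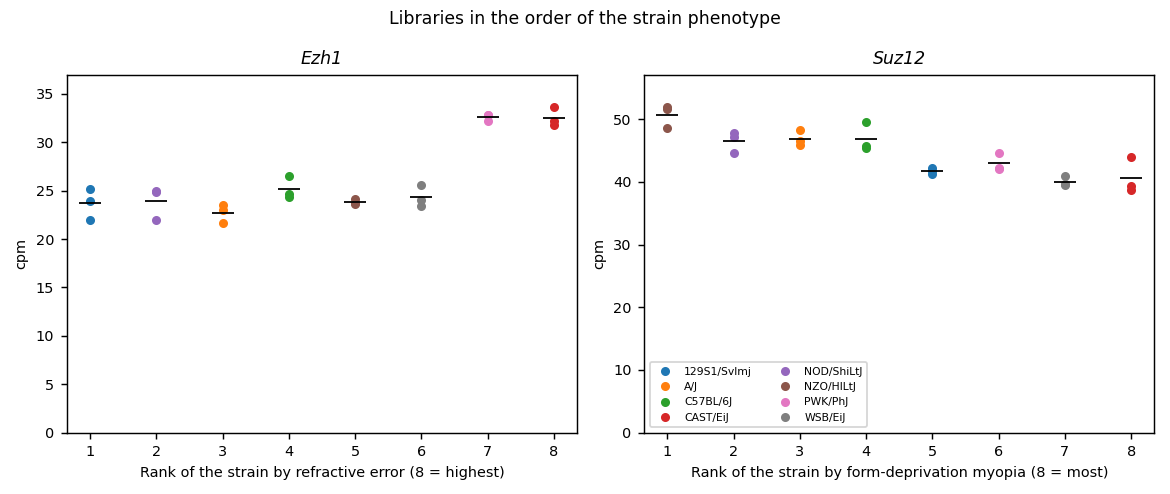
Level in cpm (vertical axes, from 0) of Ezh1 (left) and Suz12 (right) in the 24 libraries against the rank of their strain (horizontal axes) by refractive error or by form-deprivation myopia. Points are libraries, coloured by strain, and bars strain means; Ezh1 lay above 31.7 cpm in PWK/PhJ and CAST/EiJ, ranked 7 and 8, and Suz12 fell from 50.7 cpm in NZO/HlLtJ, ranked 1, to 40.7 cpm in CAST/EiJ, ranked 8.

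With the strain as the unit, no relation held after adjustment over all genes. That adjustment could hardly be passed, since a single gene at the smallest exact p would have an adjusted p of 0.407 with 8 strains and 1 with 7. Of the 27 relations between the 9 genes and the 3 traits, 5 had an exact two-sided permutation p under 0.05 over the orders of the strains. Adjusted over these 27 alone, an adjustment chosen after the values were seen, Suz12 with form-deprivation myopia had a permutation p of 0.0394 and the 4 others 0.242. With refractive error this was Ezh1, 1 of 9, against 9.51% of all genes tested, with r = 0.72 (exact p = 0.0448, 0.512 after adjustment over all genes) and a Spearman coefficient of 0.76 (exact p = 0.0368, adjusted 0.438) over 8 strains. Without 129S1/Svlmj and CAST/EiJ, farthest from the median trait, its r was 0.70 (exact p = 0.0694). With form-deprivation myopia these were Suz12 and Mbd1, 2 of 9, against 7.16%. Suz12 had r = -0.90 (exact p = 0.00146, adjusted 0.651) and a Spearman coefficient of -0.88 (exact p = 0.00724, adjusted 0.474), and r = -0.91 (exact p = 0.0319) without CAST/EiJ and NZO/HlLtJ. Without the wild-derived strains the exact p of Suz12 was not under 0.05. Mbd1 had r = 0.76 (exact p = 0.0418, adjusted 0.672) and a Spearman coefficient of 0.76 (exact p = 0.0368, adjusted 0.515), and r = 0.48 (exact p = 0.358) without CAST/EiJ and NZO/HlLtJ. Without single strains Mbd1 stayed under 0.05 without NZO/HlLtJ, WSB/EiJ or 129S1/Svlmj, and rose to an exact p of 0.0573 without A/J, 0.0597 without C57BL/6J, 0.0696 without PWK/PhJ, 0.0873 without NOD/ShiLtJ and 0.201 without CAST/EiJ. Without the lens-high libraries its exact p was 0.0549. With contrast sensitivity these were Dnmt1 and Mbd1, 2 of 9, against 5.29%, over 7 strains. Dnmt1 had r = -0.83 (exact p = 0.026, adjusted 0.89) and a Spearman coefficient of -0.89 (exact p = 0.0123, adjusted 1), and r = -0.90 (exact p = 0.00833, the smallest that 5 strains can give) without NZO/HlLtJ and WSB/EiJ. Mbd1 had r = 0.76 (exact p = 0.0349, adjusted 0.89) and a Spearman coefficient of 0.82 (exact p = 0.0341, adjusted 1), and r = 0.81 (exact p = 0.1) without the same strains. The exact p of Dnmt1 was 0.0933 without the Xist-high libraries, and without the lens-high libraries it was 0.0696 for Dnmt1 and 0.0631 for Mbd1. Without the strain CAST/EiJ neither was under 0.05. Nor was Mbd1 without NOD/ShiLtJ, NZO/HlLtJ or WSB/EiJ, or under the other scalings. Single libraries moved these counts. Ezh1 was lost for refractive error without 129S1/Svlmj replicate 1, NOD/ShiLtJ replicate 2 or WSB/EiJ replicate 1 (0 genes), and Mbd1 for form-deprivation myopia without NZO/HlLtJ replicate 1 or WSB/EiJ replicate 3 (1 gene). For contrast sensitivity 1 gene was left without replicate 2 of C57BL/6J or NOD/ShiLtJ or replicate 3 of CAST/EiJ, and 0 without 129S1/Svlmj replicate 2 or WSB/EiJ replicate 1. With limma on strain means, 0 of the 9 genes and 0 of all genes were called for any trait. An unadjusted p under 0.05 was found for 1 of the 9 with refractive error (11.4% of all genes), 2 with form-deprivation myopia (8.82%) and 1 with contrast sensitivity (5.52%). With the strain as a random effect in limma, 0 of the 9 were called as well, against 1.27%, 0.713% and 0.146% of all genes, and 4, 3 and 4 had an unadjusted p under 0.05, against 17.1%, 14.0% and 10.5%.

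The wider pathways were read from lists of 77 other genes, of which 73 were tested, while Phf19, Epop, Dnmt3l and Uhrf1 were under 0.5 cpm. The F-test called 69 of the 73, against 97.2% of all genes. The median range of strain means was 0.31 on the log2 scale for these genes, 0.44 for the 9 members and 0.43 for all genes tested. In CAST/EiJ, 21 of the 73 were higher and 10 lower than the mean of the other strains, against 20.4% and 29.3% of all genes, and in PWK/PhJ 21 and 10, against 26.7% and 22.9%. For refractive error 8 rose and 1 fell with the trait, for form-deprivation myopia 1 rose and 5 fell, and for contrast sensitivity 0 rose and 2 fell, by limma at a q under 0.01. The shares of all genes called, in both directions, were 15.5%, 10.9% and 5.12%. Of all genes called, 35.4% rose with refractive error (43.3% and 49.8% under the other scalings), 36.3% with form-deprivation myopia (46.9% and 46.8%) and 57.9% with contrast sensitivity (55.2% and 54.3%). The count for refractive error was 6 without the Xist-high libraries (5.87% of all genes) and 9 without the lens-high libraries (11.0%). The count for form-deprivation myopia was 5 without the lens-high libraries (9.56%), 2 without CAST/EiJ replicate 1 or 2, 3 without CAST/EiJ replicate 3 and 2 without the Xist-high libraries (5.35%). For contrast sensitivity it was 3 without the lens-high libraries (5.38%), 0 without CAST/EiJ replicate 1 or 3 or without the Xist-high libraries (0.994%), 1 without CAST/EiJ replicate 2, 4 without 129S1/Svlmj replicate 3 or C57BL/6J replicate 2, and 5 without 129S1/Svlmj replicate 1. Without CAST/EiJ and PWK/PhJ the counts were 1 for refractive error (Cbx7, against 1.87% of all genes), 1 for form-deprivation myopia (Gadd45a, against 2.52%) and 2 for contrast sensitivity (against 2.26%), neither of which was called with all strains. With the strain as a random effect in limma Cbx7 alone was called, for refractive error. On strain means limma called 0 pathway genes for any trait.

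Among the 8 PRC2 accessory subunits, 6 were tested, 2 rose with refractive error and none was called for the other traits. These were Rbbp4, a histone chaperone, at a moderated t of 5.18 (q = 0.000417), and Phf1, a Polycomb-like protein that binds methylated histone H3, at 4.91 (q = 0.000622). Neither was called without CAST/EiJ and PWK/PhJ (q = 0.025 and 0.185). Phf1 had the widest range of the list, from 8.33 ± 0.47 cpm (SD, n = 3) in A/J to 13.9 ± 0.9 cpm in CAST/EiJ, followed by Jarid2, which recruits PRC2, highest in NOD/ShiLtJ at 54.8 ± 2.2 cpm and lowest in 129S1/Svlmj at 40.3 ± 3.4 cpm.

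Polycomb repressive complex 1 (PRC1), which reads the mark of PRC2 and ubiquitinates histone H2A, was measured by 23 genes. With refractive error 3 rose and 1 fell, with form-deprivation myopia 3 fell, and with contrast sensitivity 2 fell. Cbx7, a chromodomain reader, had the largest t with refractive error, 8.56 (q = 3.47e-06), and stood at 12.6 ± 1.3 cpm (SD, n = 3) in NOD/ShiLtJ and 22.9 ± 1.1 cpm in CAST/EiJ, a 1.81-fold range. It was called without CAST/EiJ and PWK/PhJ as well (q = 0.0012). Rnf2, a ubiquitin ligase of PRC1, fell with it (t = -3.57, q = 0.00561), from 22.9 ± 1.15 cpm in A/J to 18.5 ± 1.6 cpm in PWK/PhJ. That call was lost after quantile normalization (q = 0.0104), without the Xist-high libraries (0.0158) and without CAST/EiJ and PWK/PhJ (0.352). Rybp, a subunit of variant PRC1, fell with form-deprivation myopia (t = -4.66, q = 0.00149) and with contrast sensitivity (t = -5.09, q = 0.00189). It was called for neither without CAST/EiJ and PWK/PhJ (q = 0.301 and 0.153) or without the Xist-high libraries (0.0128 and 0.0177). Yaf2, its paralog, was lowest in CAST/EiJ at 10.5 ± 0.3 cpm and highest in WSB/EiJ at 17.8 ± 1.1 cpm.

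Of 9 other methyl-CpG readers, 2 rose with refractive error and 1 fell with form-deprivation myopia. Mbd4, a glycosylase that binds methylated sites, had a t of -3.93 with form-deprivation myopia (q = 0.00453) and was lowest in CAST/EiJ at 3.81 ± 0.34 cpm (SD, n = 3). That call was lost without CAST/EiJ and PWK/PhJ (q = 0.384) and without the Xist-high libraries (0.0244). Mbd6 set CAST/EiJ and PWK/PhJ at opposite ends, at 8.82 ± 0.56 and 5.38 ± 0.54 cpm.

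Of 8 other genes of DNA demethylation, 1 fell with form-deprivation myopia and none was called for the other traits. This was Gadd45a (t = -5.33, q = 0.00058), highest in NZO/HlLtJ at 10.1 ± 0.4 cpm (SD, n = 3). It was called without CAST/EiJ and PWK/PhJ (q = 0.00115), but not without the strain NZO/HlLtJ (0.0405). Tdg, the glycosylase that removes oxidized methylcytosine, had the widest range of all pathway genes, 3.28-fold, and stood at 11.5 ± 0.9 cpm in C57BL/6J against 3.51 ± 0.21 cpm in WSB/EiJ and at most 5.95 cpm in the mean of any other strain. Gadd45b ranged from 0.517 ± 0.075 cpm in WSB/EiJ to 1.54 ± 0.26 cpm in A/J. Of 6 methyltransferase genes and cofactors, 4 were tested and none was called for any trait. The widest ranges were those of Hells, a chromatin remodeler, lowest in PWK/PhJ at 2.59 ± 0.16 cpm and highest in A/J at 4.10 ± 0.17 cpm, and of Dnmt3b, from 1.27 ± 0.04 cpm in NZO/HlLtJ to 2.10 ± 0.16 cpm in A/J. None of 7 erasers of the Polycomb marks was called for a trait. Kdm6a, an X-linked demethylase, had the widest range of strain means of these but did not pass the F-test (q = 0.0125), and its SD was 14.2 cpm in CAST/EiJ, 11.3 in C57BL/6J, 10.4 in PWK/PhJ and 8.89 in 129S1/Svlmj, the strains with a Xist-high library, and at most 1.47 cpm in the others. Kdm6b lay between 2.85 ± 0.15 cpm in C57BL/6J and 3.91 ± 0.45 cpm in CAST/EiJ.

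Of 16 other histone methyltransferases, 1 rose with refractive error and with form-deprivation myopia. This was Kmt5a, which methylates histone H4, with t of 3.40 (q = 0.00753) and 3.86 (q = 0.00506), at 14.3 ± 0.7 cpm (SD, n = 3) in CAST/EiJ and 12.6 ± 0.7 cpm in PWK/PhJ against at most 8.80 cpm in the mean of any other strain. Neither call held without CAST/EiJ and PWK/PhJ (q = 0.32 and 0.577) or without the Xist-high libraries (0.0651 and 0.0213). Kmt2a, which opposes Polycomb silencing, was lowest in 129S1/Svlmj at 99.4 ± 10.7 cpm and highest in PWK/PhJ at 199 ± 14 cpm.

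The genes most like each member over the 8 strain means were found among 8524 others with a mean of at least 5 cpm. For Ezh1 they were Slc36a4 (r = 0.98) and Eef2-ps2 (r = 0.98), for Ezh2 Mapre2 and Tle2 (both r = 0.96), for Suz12 Aagab (r = 0.97) and Pcnp (r = 0.97), and for Eed Atf4 (r = 0.98) and Cxxc1 (r = 0.97). For Dnmt1 they were Gsk3a and Snd1 (both r = 0.97), and for Dnmt3a Adcy5 (r = 0.98) and Zfp385a (r = 0.98). For Mbd1 they were Lemd2 (r = 0.99) and Tex2 (r = 0.98), for Tet1 Cdh11 (r = 0.96) and Rbm28 (r = 0.95), and for Tet3 Edc3 and Maneal (both r = 0.96). Genes with an r above 0.95 numbered 28 for Ezh1 and 25 for Mbd1, 12 for Dnmt3a, and between 2 and 6 for the rest. The genes named had the highest of 8524 values over 8 points, where high values can arise by chance. No chance level was computed, so these likenesses are descriptions.

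The genes lie on different chromosomes of GRCm38 except for pairs: Ezh1 (chr11:101191115-101226463) and Suz12 (chr11:79993106-80034123), and Ezh2 (chr6:47530139-47595341) and Tet3 (chr6:83362373-83459084). Eed lies at chr7:89954654-89980983, Dnmt1 at chr9:20907209-20959888, Dnmt3a at chr12:3806007-3914443, Mbd1 at chr18:74267605-74282732 and Tet1 at chr10:62804570-62908996. Exons of other annotated genes covered 6.82% of the exon bases of Eed, 3.6% of those of Suz12, 2.61% of those of Ezh2 and 0.8% of those of Dnmt3a, and none of the rest.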

How the data were processed

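The authors trimmed the reads, aligned them to GRCm38 with STAR, assigned them to genes in Partek Flow, divided by library size to give CPM values, written cpm here, and added 0.0001 before the table was deposited. Whether counting used the strand is not stated. Exon lengths came from a GENCODE annotation, while the authors assigned reads with RefSeq. The columns of the table that could not be mapped to a library numbered 0. Library depth was estimated from the step of low values, of which between 89.6% and 91.6%, among those under 10 reads, lay within 0.05 of a whole number of reads. Values were taken as log2(cpm + 1), genes under a mean of 0.5 cpm were left out, and limma 3.58.1 in R 4.3.3 fitted strain means with an intensity trend. Strain and trait tests used Storey q-values under 0.01, for which the share of unchanged genes was estimated as 0.0208 over strains and as 0.451, 0.52 and 0.558 for the traits, and contrasts a Benjamini-Hochberg adjusted p under 0.05 over all genes and contrasts. Traits were regressed with libraries as replicates, and strain means were permuted over all orders in Python 3.11.15 with numpy 2.4.6 and pandas 2.3.3. Figures used matplotlib 3.10.9. Scripts were tested on simulated data. Pathway genes are named if they had the largest t for a trait in each direction or the 2 widest ranges of their list, or were among the 2 genes most like a member. Not every gene that meets this, nor every marker list read, is shown. The 9 genes and all lists were chosen with earlier results of these data known. Alternatives without CAST/EiJ and PWK/PhJ, the Xist-high or the lens-high libraries were chosen after seeing the data.

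Limits: the traits were measured in other mice and at later ages, and contrast sensitivity for A/J was not in the copy used. With 8 trait values and 3 libraries per value, fits on libraries treat related values as independent. Sex is not labelled. How alignment to 1 reference genome bears on the strain values was not tested. Isoforms, proteins, histone marks and DNA methylation were not measured. An effect called in one strain or fit and not another is not shown to differ.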

Additional observations from a re-analysis of the deposited data

How the results depend on the processing

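The count of the 9 genes called for refractive error was 4, against 15.5% of all genes. Shares of all genes follow in brackets. The count was 3 under median-ratio scaling (16.3%), after quantile normalization (16.1%) and without C57BL/6J (13.8%). It was 2 without a filter on low values (10.2%), 1 at a Benjamini-Hochberg adjusted p under 0.01 (10.9%), 0 with strain means as units (0%) and 0 with the strain as a random effect (1.27%). Leaving out a strain gave 1 without A/J (13.0%), 0 without CAST/EiJ (6.38%), 1 without NOD/ShiLtJ (11.5%) and 1 without PWK/PhJ (10.8%). Leaving out the wild-derived strains gave 1 (2.12%; Suz12, not 1 of the 4), CAST/EiJ and PWK/PhJ 0 (1.87%), the Xist-high libraries 1 (5.87%) and the lens-high libraries 2 (11.0%). The t of Mbd1 on refractive error reversed to -0.99 without the wild-derived strains and to -0.64 without CAST/EiJ and PWK/PhJ.

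For form-deprivation myopia the count was 3 (10.9%). It was 2 without a filter on low values (6.97%) and at a Benjamini-Hochberg adjusted p under 0.01 (7.51%). Leaving out A/J (8.7%), C57BL/6J (9.7%) or NOD/ShiLtJ (8.17%) gave a count of 2. So did leaving out the Xist-high (5.35%) or the lens-high libraries (9.56%). It was 0 with strain means as units (0%), 0 with a random effect (0.713%), 1 without CAST/EiJ (1.90%), 6 without NZO/HlLtJ (20.7%), 0 without the wild-derived strains (2.27%) and 1 without CAST/EiJ and PWK/PhJ (2.52%).

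For contrast sensitivity the count was 1 (5.12%). It was 2 after quantile normalization (5.43%), 4 at a q under 0.05 (15.8%), 0 with strain means as units (0%), 0 with a random effect (0.146%) and 0 on the rank of the trait (2.14%). It was 2 without 129S1/Svlmj (10.9%), 0 without CAST/EiJ (0.915%), 3 without NZO/HlLtJ (8.81%), 2 without PWK/PhJ (7.71%) and 2 without WSB/EiJ (4.49%). It was 0 without the wild-derived strains (2.90%), 0 without CAST/EiJ and PWK/PhJ (2.26%) and 0 without the Xist-high libraries (0.994%).

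The count of genes with an exact permutation p under 0.05 for refractive error was 1 (9.51%). It was 4 without 129S1/Svlmj (13.1%), and 0 without A/J (7.66%), without C57BL/6J (7.73%), without CAST/EiJ (5.79%), without NOD/ShiLtJ (7.17%), without PWK/PhJ (7.59%) and without CAST/EiJ and PWK/PhJ (3.94%). Without the wild-derived strains it was 1 (3.62%), but Suz12 in place of Ezh1. For form-deprivation myopia it was 2 (7.16%). It was 1 without A/J (6.20%), without C57BL/6J (6.40%), without CAST/EiJ (4.38%), without NOD/ShiLtJ (5.82%), without PWK/PhJ (7.85%), without CAST/EiJ and PWK/PhJ (5.07%) and without the lens-high libraries (6.71%), and 0 without the wild-derived strains (3.41%). For contrast sensitivity it was 2 (5.29%). It was 1 under median-ratio scaling (5.54%), 1 after quantile normalization (5.25%), 0 without CAST/EiJ (2.98%), 1 without NOD/ShiLtJ (4.31%) and 1 without NZO/HlLtJ (6.73%). It was 2 without WSB/EiJ (3.74%; Suz12 in place of Mbd1), 0 without CAST/EiJ and PWK/PhJ (3.39%), 1 without the Xist-high (4.82%) and 0 without the lens-high libraries (4.72%).

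Without each library in turn, the members passing the F-test were 9 to 9, the strain pairs called 105 to 119, the strain contrasts called 30 to 35, the genes called for refractive error 1 to 4, for form-deprivation myopia 2 to 3 and for contrast sensitivity 0 to 1. The exact permutation counts were 0 to 1, 1 to 2 and 0 to 2.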
